A study of Mus musculus with 62 samples.

Results

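Dorsal striatum (DS) was compared with ventral striatum (VS) in mice that had received ethanol. The comparison took 13 of the 62 libraries of the series, taken by their group labels, the ethanol groups because these libraries were known to hold little cortical RNA: 7 DS libraries (3 acute ethanol, 4 chronic ethanol) and 6 VS libraries (3 acute, 3 chronic). All came from male C57BL/6J mice of 8 to 10 weeks, an inbred strain with no transgene, injected intraperitoneally with 2 g/kg ethanol in saline once (acute) or daily for 10 days (chronic) and killed 4 h after the last injection. The 13 libraries came from 8 mice, and 5 of these mice gave both a DS and a VS library. Each library held poly(A) RNA of a tissue punch from a frozen coronal slice, made with the same directional kit and in the same batch for both regions. A punch pools every cell type at the site, so that fewer cells of a type and less RNA per cell cannot be told apart in any value below. Saline-injected mice (5 DS and 6 VS libraries) gave the same contrast in other animals. These mice, of the same strain, sex and age, were likewise injected once (acute) or daily for 10 days (chronic).

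The striatum is the main input station of the basal ganglia. Its dorsal portion receives sensorimotor and associative cortex and dopamine from the substantia nigra, and it is known for action selection and habit. Its ventral portion holds the nucleus accumbens and olfactory tubercle, receives limbic cortex, hippocampus, amygdala and dopamine from the ventral tegmental area, and is known for reward and motivation. Most neurons in both are GABAergic spiny projection neurons (SPNs) of a D1 dopamine receptor type or a D2 type, with a small eccentric type beside them, and the dorsal tissue is divided into striosome and matrix compartments. Identity genes are those used to tell these territories and cell types apart.

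The regional labels were first set beside 2 lists of identity genes. These lists were chosen with earlier results of these data known, so their levels are no independent check of the labels. Levels are given as CPM, counts scaled to a common library size after normalization for library composition. The mean level over the 14 dorsal list genes was 512 to 805 CPM in the DS libraries and 214 to 449 CPM in the VS libraries. The mean level over the 24 ventral list genes was 35.1 to 53.1 CPM in DS and 103 to 119 CPM in VS. Neither list overlapped between the regions. The first principal component of log2 CPM held 21.9% of the variance and placed the DS libraries at 12.5 to 68.0 and the VS libraries at -52.3 to -27.4. Library totals ran from 10437257 to 46564992 counts in DS and from 11012260 to 20428676 in VS.

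Libraries also differed in RNA of neighbouring tissue. Acute VS replicate 5 stood apart: its dorsal list level was 214 CPM against 355 to 449 CPM in the other VS libraries, and it held 3.39 CPM of the vasopressin gene Avp and 4.48 CPM of the diencephalic factor Lhx9, both picked after their values were seen. Lhx9 was not particular to it, since chronic DS replicate 1 also held Lhx9, at a level given in the closing section. Choroid plexus genes (8 listed, led by the thyroxine carrier Ttr) had a mean level of 2.87 to 389 CPM in DS and 4.2 to 24.3 CPM in VS, and 4 DS libraries exceeded 50 CPM. Ttr reached 2742 CPM in chronic DS replicate 1 and 2605 CPM in chronic DS replicate 5. Myelin genes (11) had a mean level of 625 to 873 CPM in DS and 392 to 666 CPM in VS. Only acute VS replicates 3 and 5 (659 and 666 CPM) lay above the lowest DS library. This list thus largely follows the region, and a fit with it as covariate cannot separate myelin from region. Ependymal genes (6) lay at 3.09 to 17 CPM in DS and 0.833 to 6.17 CPM in VS. Genes of septum, pallidum and basal forebrain (11) lay at 7.92 to 20.6 CPM in DS and 6.84 to 21.1 CPM in VS. Pallial excitatory neuron genes (9) lay at 2.1 to 17.7 and 1.45 to 13.6 CPM, and Neurod2 was at 0 in at least 1 DS library. The part these neighbours play in a given difference was not tested, and results that lost their call with them in the model or without these libraries are named beside the result or in the closing section.

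**Figure D1:**
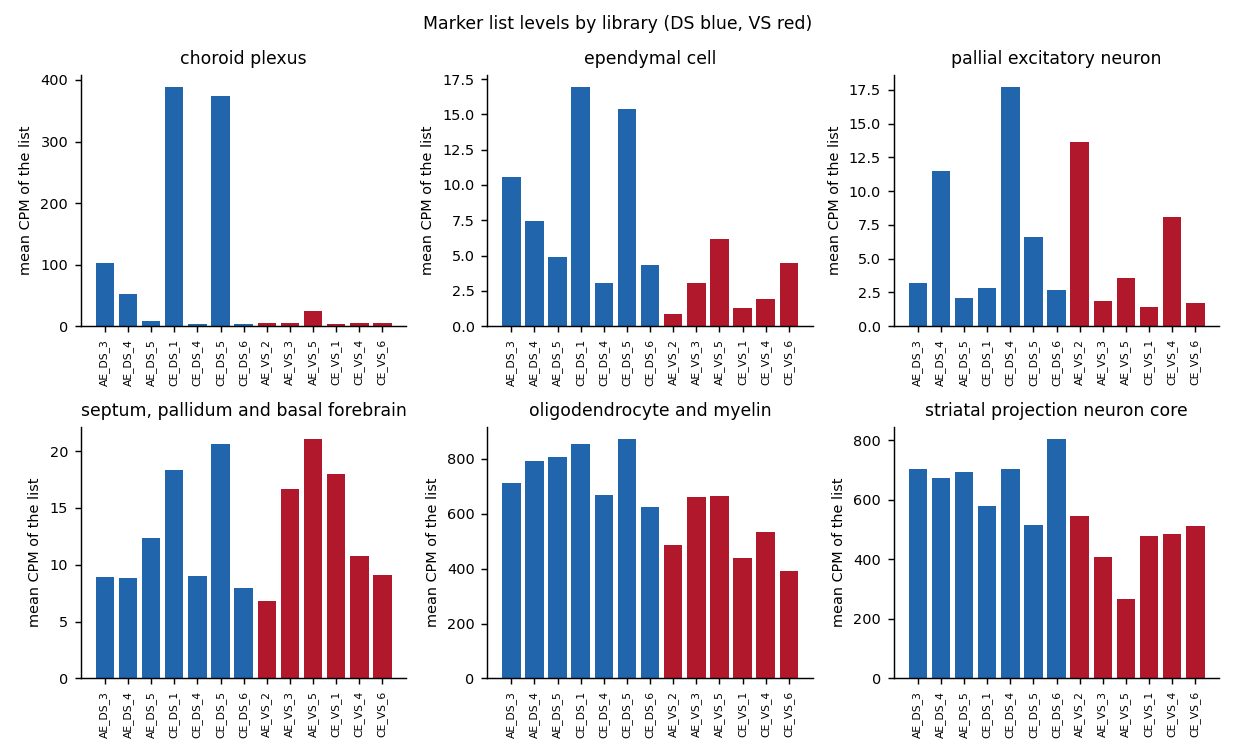
Mean CPM over 6 lists of marker genes, 1 bar per ethanol library (AE acute, CE chronic, followed by the region and replicate number), DS in blue and VS in red. The choroid plexus list runs from 2.87 to 389 CPM among the DS libraries, and the projection neuron core list is lowest in acute VS replicate 5.

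Between the regions, 6610 of 21367 genes tested passed an FDR below 0.1 (30.9%), where FDR is the Benjamini-Hochberg adjusted p of edgeR's quasi-likelihood test with paradigm as covariate. Of these, 3278 were higher in DS (15.3%) and 3332 higher in VS (15.6%). Differences are log2 of DS over VS, so that positive values are higher in DS. A difference of at least 2-fold with FDR below 0.1 was seen for 587 genes in DS (2.75%) and 378 in VS (1.77%). In 904 genes (4.23%) every DS library lay above every VS library, and in 1086 (5.08%) every VS library lay above every DS library, together 9.31% of genes. With the choroid plexus or the pallial list as covariate 29.0% and 28.9% of genes were called. The median difference over all genes was -0.01. Genes of the lists described here numbered 435, of which 431 were tested and 247 (57.3%) passed, a share to be read against the 30.9% of all genes and against lists drawn up from known regional genes.

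**Figure D2:**
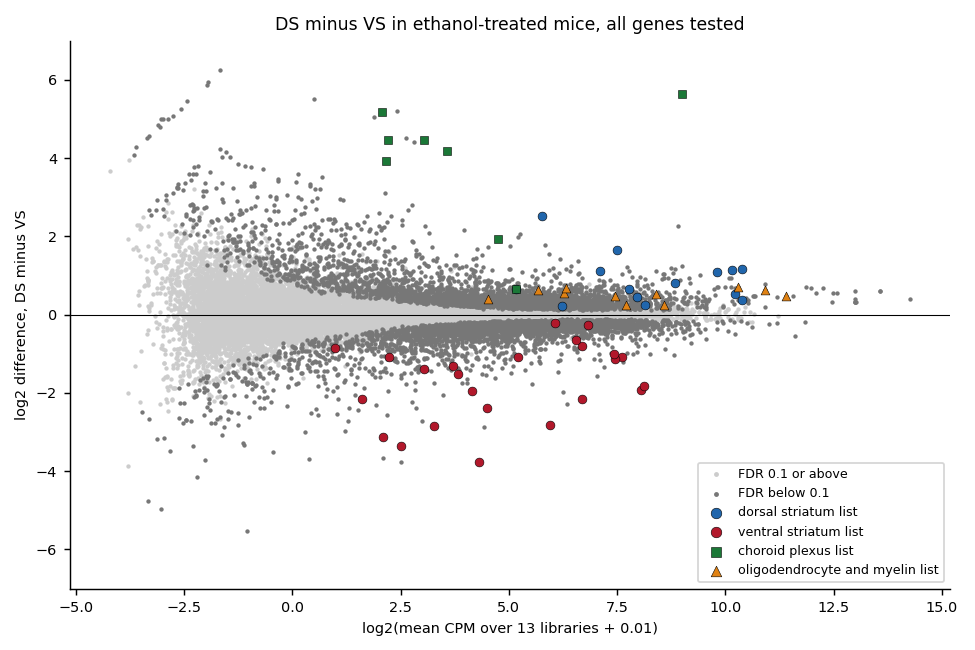
Log2 difference (DS minus VS, y axis) of each gene tested against log2 of its mean CPM over the 13 libraries plus 0.01 (x axis). Grey shades mark genes below and above an FDR of 0.1, and coloured points mark the dorsal, ventral, choroid plexus and myelin lists. Dorsal list genes lie above 0 and ventral list genes below 0, from 2.53 (Coch) to -3.77 (Cartpt).

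Of the 14 dorsal identity genes, 12 were higher in DS and none was higher in VS, where 15.3% of all genes were higher in DS. Their median difference was 0.74, and in 8 of them every DS library exceeded every VS library (4.23% of all genes). The largest difference was in Coch, which encodes the secreted matrix protein cochlin. Coch ran from 62.5 to 103 CPM in DS (median 89.3) and from 7.95 to 27.9 CPM in VS (median 13.7). It was 87.8 ± 14.2 CPM in DS and 15.2 ± 6.94 CPM in VS (mean ± SD, n = 7 and n = 6, as throughout), a log2 difference 2.53 ± 0.21 (SE), FDR 1.77e-06. The regions did not overlap, and DS was higher in each of the 5 mice that gave both regions.

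Cnr1, the CB1 cannabinoid receptor that dampens transmitter release from SPN and cortical terminals, ran from 159.5 to 347 CPM in DS (median 268) and from 53.8 to 135 CPM in VS (median 79.1) (log2 difference 1.66 ± 0.20 (SE), FDR 4.73e-05). Gpr155, a lysosomal membrane protein that senses cholesterol, ran from 127 to 256 CPM in DS (median 179) and from 67.5 to 111 CPM in VS (median 83.7) (log2 difference 1.11 ± 0.15 (SE), FDR 0.00011). Neither gene overlapped between the regions. Scn4b, the sodium channel beta-4 subunit, ran from 1103 to 1742 CPM in DS (median 1554) and from 355 to 922 CPM in VS (median 716) (log2 difference 1.13 ± 0.16 (SE), FDR 0.000164). Pde10a, the phosphodiesterase that degrades cAMP and cGMP in SPNs, ran from 1316 to 2224 CPM in DS (median 1839) and from 383 to 1063 CPM in VS (median 879.8) (log2 difference 1.18 ± 0.17 (SE), FDR 0.000201). For both Scn4b and Pde10a the lowest VS library was acute VS replicate 5, and without it the differences were 0.99 and 1.03, still called.

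Smaller differences were found in the rest of the list. Rgs9, which speeds G-protein shut-off downstream of dopamine and opioid receptors, and Kcnh4, a voltage-gated potassium channel, were higher in DS by 0.81 and 0.67 with no overlap. Drd2 (0.66), the phosphodiesterase Pde1b (0.54), the adenosine receptor gene Adora2a (0.44) and the adenylyl cyclase Adcy5 (0.39) were higher in DS with overlapping ranges. The orphan receptor Gpr6 (57.2 to 98.5 CPM in DS against 38.4 to 88.3 CPM in VS, FDR 0.345) and the Kv4 channel partner Kcnip2 (273 to 371 CPM in DS against 159 to 311 CPM in VS, FDR 0.114) did not pass. With mouse as a block in the 10 paired libraries both passed: Gpr6 had a log2 difference 0.40, FDR 0.0354, against a range of 0.000439 to 0.99 over all alternatives. Kcnip2 then had a log2 difference 0.36, FDR 0.017, against a range of 0.000831 to 0.501 over all alternatives.

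**Figure D3:**
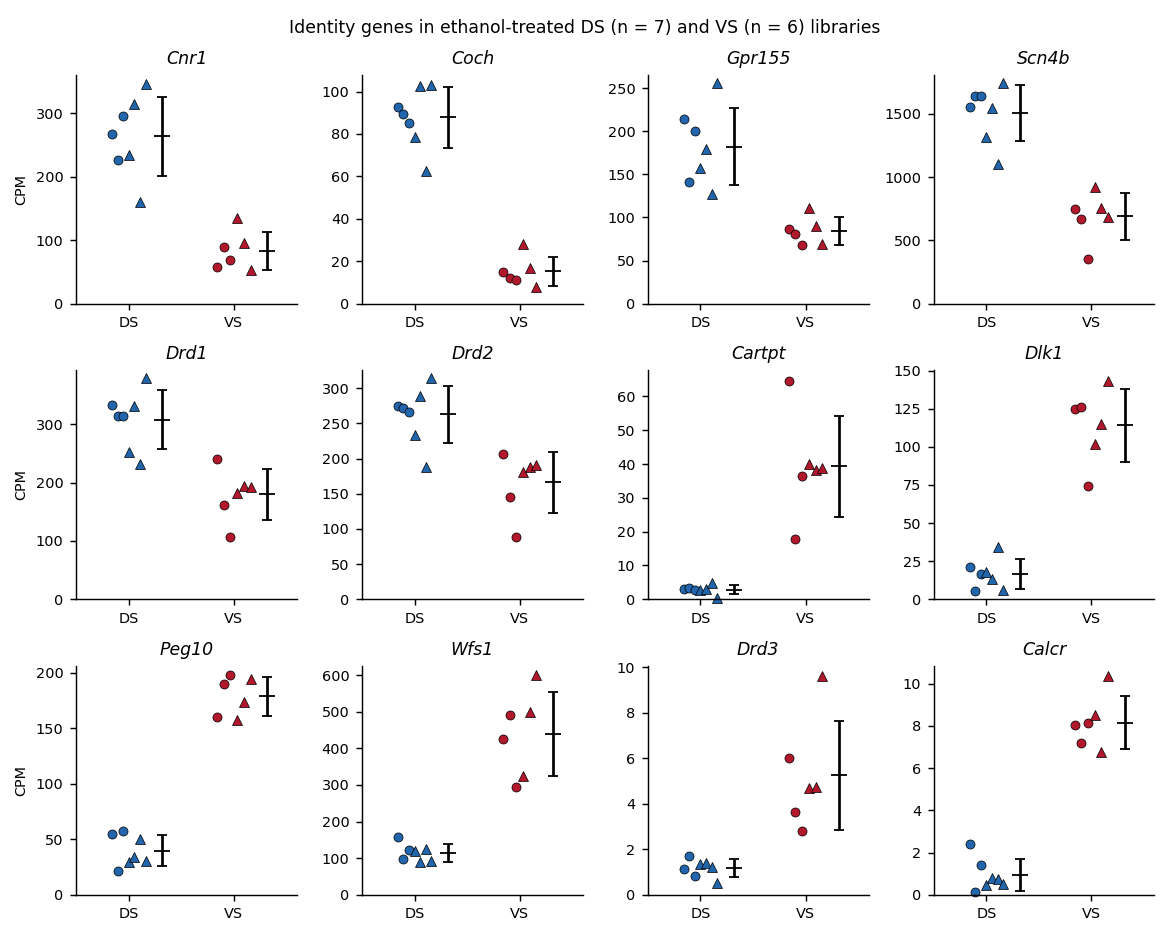
CPM of 12 identity genes in each ethanol library (circles acute, triangles chronic, DS blue, VS red), with the mean and SD of each region in black (n = 7 DS, n = 6 VS). In the dorsal genes Cnr1, Coch, Gpr155 and Scn4b every DS library lies above every VS library, and in the ventral genes of the plot every VS library lies above every DS library.

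Many genes shared by SPNs in both territories were also higher in DS. Of 22 SPN core genes 17 were higher in DS and none in VS (15.3% and 15.6% of all genes), with a median of 0.46, and 6 had no overlap with DS above VS (4.23% of all genes). Acute VS replicate 5 held 266 CPM as the mean of this list against 409.8 to 547 CPM in the other VS libraries, and without it 16 genes were higher in DS and 1, Six3, in VS. Ppp1r1b, which encodes the phosphoprotein DARPP-32 that integrates dopamine signals, ran from 1426 to 2201 CPM in DS (median 1936) and from 767 to 1544 CPM in VS (median 1442) (log2 difference 0.48 ± 0.14 (SE), FDR 0.0189), and the ranges overlapped. Foxp1, a forkhead factor of SPN differentiation, ran from 246 to 344 CPM in DS (median 299) and from 103 to 214 CPM in VS (median 155) (log2 difference 0.95 ± 0.14 (SE), FDR 0.00018). Its DS libraries all exceeded its VS libraries, as did those of Ebf1 (0.85) and Ikzf1 (0.72), factors of SPN development. Bcl11b (CTIP2), the zinc finger factor of SPN identity, differed by 0.61. Meis2, Ptpn5, Isl1, Six3 and Sp9 did not pass, with differences between -0.14 (Six3) and 0.29 (Ptpn5). The genes that differed least included the lineage factors Isl1 (13.6 to 21.7 CPM in DS against 14 to 19.3 CPM in VS) and Sp9 (25.1 to 30.5 CPM in DS against 23 to 30.5 CPM in VS).

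Of 9 D1-type genes 5 were higher in DS and 1 in VS, and of 10 D2-type genes 5 were higher in DS and none in VS (without acute VS replicate 5, 1). Over all genes 15.3% were higher in DS and 15.6% in VS. The receptor genes that give both types their names moved together: Drd1 ran from 232 to 379.7 CPM in DS (median 315) and from 106 to 241 CPM in VS (median 188) (log2 difference 0.78 ± 0.15 (SE), FDR 0.00154), and Drd2 ran from 189 to 314 CPM in DS (median 272) and from 88 to 206 CPM in VS (median 184) (log2 difference 0.66 ± 0.16 (SE), FDR 0.00651). The opioid precursor Penk, carried by D2-type cells, was at 842 to 1473 CPM in DS against 697 to 1436 CPM in VS and did not pass (FDR 0.797). The substance P precursor Tac1, carried by D1-type cells, was at 146 to 269.9 CPM in DS against 106 to 236 CPM in VS and did not pass (FDR 0.187). Whether the receptor and peptide differences themselves differ was not tested. The D1-type exception was the dynorphin precursor Pdyn, higher in VS, described with the peptides. In the D2-type list Gprin3 (1.07) and Sh3rf2 (1.05) were higher in DS with no overlap. Without the 4 DS libraries high in choroid plexus genes, 3 of the 10 D2-type genes were called, where 21.5% of all genes were.

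All 24 ventral identity genes were higher in VS, where 15.6% of all genes were. Their median difference was -1.45, 19 differed by at least 2-fold (1.77% of all genes) and in 17 every VS library exceeded every DS library (5.08% of all genes). Cartpt, the precursor of the CART peptides of accumbens SPNs and feeding circuits, had the largest difference in the list. It ran from 0.348 to 4.84 CPM in DS (median 2.88) and from 17.9 to 64.6 CPM in VS (median 38.5), that is 2.85 ± 1.33 CPM in DS and 39.4 ± 14.9 CPM in VS (log2 difference -3.77 ± 0.31 (SE), FDR 1.63e-06). The highest DS library held less than any VS library, and VS was higher in all 5 mice with both regions.

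Drd3, the D3 dopamine receptor concentrated in the accumbens and islands of Calleja, ran from 0.521 to 1.71 CPM in DS (median 1.24) and from 2.79 to 9.63 CPM in VS (median 4.72) (log2 difference -2.17 ± 0.29 (SE), FDR 9.43e-05). Calcr, the calcitonin receptor that also serves amylin, ran from 0.131 to 2.4 CPM in DS (median 0.744) and from 6.73 to 10.3 CPM in VS (median 8.06) (log2 difference -3.13 ± 0.36 (SE), FDR 2.47e-05). Gpr101, an orphan receptor, ran from 3.28 to 13.4 CPM in DS (median 6.66) and from 21.7 to 60.1 CPM in VS (median 40.3) (log2 difference -2.40 ± 0.27 (SE), FDR 1.81e-05). None of these receptor genes overlapped between the regions. Arhgap36, an inhibitor of protein kinase A, ran from 0.131 to 4.94 CPM in DS (median 1.6) and from 12.2 to 24.2 CPM in VS (median 17.6) (log2 difference -2.85 ± 0.41 (SE), FDR 0.000167). Arhgap36 too had no overlap, and its DS level at the low end was near the limit of detection.

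Among abundant ventral genes, Wfs1, an endoplasmic reticulum protein mutated in Wolfram syndrome, ran from 88.4 to 157 CPM in DS (median 119) and from 293 to 601 CPM in VS (median 458) (log2 difference -1.94 ± 0.16 (SE), FDR 1.85e-06). Hap1, the huntingtin-associated protein 1, ran from 85.4 to 187 CPM in DS (median 131) and from 329.7 to 623 CPM in VS (median 447) (log2 difference -1.82 ± 0.16 (SE), FDR 2.6e-06). Crym, the thyroid hormone-binding mu-crystallin, ran from 109 to 149.6 CPM in DS (median 132) and from 178 to 372 CPM in VS (median 265) (log2 difference -1.09 ± 0.13 (SE), FDR 4.78e-05). The regions did not overlap for any of them. Zcchc12 (-1.01), a transcriptional coactivator, and Gabrg1 (-1.09), a GABA-A receptor subunit, were also apart in every library. The regions overlapped for Lypd1 (-0.81), Stard5 (-1.52), Calb2 (-1.94), Magel2 (-1.38), the melanocortin receptor gene Mc4r (-0.86), Gpr83 (-0.27) and the chemokine Cxcl14 (-0.22).

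The weakest members depended on single libraries. Cxcl14 did not pass without chronic VS replicate 1 (FDR 0.11, against 0.0123 to 0.295 over all alternatives). Mc4r (0.869 to 2.0 CPM in DS against 1.32 to 4.24 CPM in VS) lost its call without acute VS replicate 5, with a log2 difference -0.68, FDR 0.12, against a range of 0.0124 to 0.361 over all alternatives. Gpr83 (84.4 to 136 CPM in DS against 96.7 to 146 CPM in VS) lost it with mouse as a block, with a log2 difference -0.21, FDR 0.297, against a range of 0.0111 to 0.998 over all alternatives. Calb2, the calretinin gene, reached 82.2 CPM in acute VS replicate 5 against 7.62 to 31.4 CPM in the other VS libraries, and its difference without that library was -1.37. Tac2 in the same library was 38.6 CPM, and its difference without it was -2.52. Both remained called without it. Stard5 lost its call with the myelin list as covariate (-0.99).

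Neuropeptides are cut from precursor proteins and released beside fast transmitters, and several of their genes are textbook targets of the cAMP response element, a palindrome bound by CREB-family factors. The element TGACGTCA, the same on both strands, was searched in the 250 bases before the start of each gene, from RefSeq promoters of build GRCm38.p6 (the counts used GRCm39). It was in 508 of 32851 such windows (1.55%). Of the 20 neuropeptide genes 15 had a window, and the element was in 3, Cartpt, Scg2 and Sst. No window was at hand for Crh, Grp, Penk, Pnoc and Vgf. All 3 windows that held it are shown, with the element in capitals. Their genes were higher in VS, as described next. Of the peptide genes higher in VS, 8 had a window.
Cartpt: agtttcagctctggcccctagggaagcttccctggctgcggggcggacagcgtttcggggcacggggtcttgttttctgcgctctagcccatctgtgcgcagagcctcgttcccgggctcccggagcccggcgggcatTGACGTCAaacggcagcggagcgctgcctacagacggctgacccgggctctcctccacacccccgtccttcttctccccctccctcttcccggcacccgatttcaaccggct
Scg2: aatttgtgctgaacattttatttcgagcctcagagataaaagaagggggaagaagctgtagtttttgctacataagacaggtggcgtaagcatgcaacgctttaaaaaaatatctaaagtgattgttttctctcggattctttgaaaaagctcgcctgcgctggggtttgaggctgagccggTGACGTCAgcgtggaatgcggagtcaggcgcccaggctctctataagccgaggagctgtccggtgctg
Sst: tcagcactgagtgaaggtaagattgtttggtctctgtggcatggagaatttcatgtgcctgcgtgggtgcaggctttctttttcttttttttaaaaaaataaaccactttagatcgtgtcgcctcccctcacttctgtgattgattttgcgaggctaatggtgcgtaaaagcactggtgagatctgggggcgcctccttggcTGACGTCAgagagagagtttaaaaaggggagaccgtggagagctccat
The windows lie at chr13:99900684-99900933, chr1:79440027-79440276 and chr16:23890845-23891094, all on the minus strand. The element begins 112 bases before the start in Cartpt, 68 in Scg2 and 48 in Sst. A match describes these letters and shows neither binding nor use.

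Of 19 neuropeptide genes tested, 9 were higher in VS and 1, the parathyroid hormone-like precursor Pthlh, in DS (0.71), where 15.6% and 15.3% of all genes were. The median was -0.85, and in 7 every VS library exceeded every DS library (5.08% of all genes). Crh, the corticotropin-releasing hormone of stress circuits, ran from 0.309 to 1.44 CPM in DS (median 0.496) and from 3.4 to 16.5 CPM in VS (median 8.38) (log2 difference -3.67 ± 0.43 (SE), FDR 3.1e-05). Tac2, the neurokinin B precursor, ran from 0.131 to 2.4 CPM in DS (median 1.04) and from 3.73 to 38.6 CPM in VS (median 6.48) (log2 difference -3.36 ± 0.58 (SE), FDR 0.00068). Nts, the neurotensin precursor, ran from 4.44 to 12.7 CPM in DS (median 5.08) and from 13.7 to 28.7 CPM in VS (median 18) (log2 difference -1.32 ± 0.24 (SE), FDR 0.00104). Neither Crh, Tac2 nor Nts overlapped between the regions. Pdyn, the precursor of dynorphins, ran from 75.5 to 111 CPM in DS (median 81.4) and from 109 to 278 CPM in VS (median 200.3) (log2 difference -1.16 ± 0.17 (SE), FDR 0.000178), with overlapping ranges. Of the opioid peptide family precursors measured, Pdyn passed, whereas Penk (0.07) and Pnoc (-0.85) did not.

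Scg2, a secretogranin of dense-core vesicles, ran from 203 to 334 CPM in DS (median 293) and from 448 to 571 CPM in VS (median 513) (log2 difference -0.87 ± 0.10 (SE), FDR 3.74e-05). Sst, the somatostatin of an interneuron class, ran from 83.9 to 95.7 CPM in DS (median 88.2) and from 109 to 159 CPM in VS (median 135) (log2 difference -0.58 ± 0.08 (SE), FDR 9.35e-05). Both were apart in every library, as was the thyrotropin-releasing hormone gene Trh (-1.08). Npy, co-expressed with somatostatin, was higher in VS (-0.31) with overlapping ranges, and lost its call with mouse as a block (log2 difference -0.16, FDR 0.384, against a range of 0.0212 to 0.856 over all alternatives). The genes Cck, Vip, Pnoc, Gal, Adcyap1, Nmb and Vgf did not pass, and Grp was too low to test. Gal and Adcyap1 reached 8.6 and 3.69 CPM in acute VS replicate 5, their highest values.

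Of 28 neuropeptide receptor genes tested, 15 were higher in VS and 3 in DS (15.6% and 15.3% of all genes), with a median of -0.63. Trhr, the receptor of thyrotropin-releasing hormone, ran from 0.263 to 1.2 CPM in DS (median 0.992) and from 3.64 to 18.2 CPM in VS (median 11.5) (log2 difference -3.78 ± 0.34 (SE), FDR 2.6e-06), with no overlap. Its peptide gene Trh was higher in the same region. Oxtr, the oxytocin receptor, ran from 1.22 to 3.91 CPM in DS (median 2.11) and from 2.85 to 11.3 CPM in VS (median 6.54) (log2 difference -1.37 ± 0.29 (SE), FDR 0.00264). Npy2r, a receptor of neuropeptide Y, ran from 5.18 to 9.6 CPM in DS (median 6.84) and from 12.5 to 24.5 CPM in VS (median 17.3) (log2 difference -1.36 ± 0.17 (SE), FDR 5.94e-05). Among the somatostatin receptors Sstr1 (-1.36), Sstr2 (-0.91), Sstr3 (-0.79) and Sstr4 (-0.41) were all higher in VS, and Sstr3 lost its call without acute VS replicate 5 (FDR 0.257, against 0.00331 to 0.427 over all alternatives). With mouse as a block Sstr4 did not pass (log2 difference -0.34, FDR 0.245, against a range of 0.0116 to 0.751 over all alternatives).

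The opioid receptors split. Oprm1, the mu receptor, ran from 1.67 to 6.69 CPM in DS (median 3.8) and from 5.87 to 10.3 CPM in VS (median 6.97) (log2 difference -0.91 ± 0.25 (SE), FDR 0.0137), and the nociceptin receptor gene Oprl1 was likewise higher in VS (-0.80). Oprm1 lost its call with the myelin list as covariate, with a difference of -0.22. Oprd1, the delta receptor, was higher in DS: it ran from 19.1 to 40.4 CPM in DS (median 28) and from 11.3 to 23.3 CPM in VS (median 18.7) (log2 difference 0.70 ± 0.17 (SE), FDR 0.00591). Oprk1, the kappa receptor on which dynorphin acts, was at 27.7 to 49.4 CPM in DS against 24.6 to 58.7 CPM in VS and did not pass (FDR 0.771). The tachykinin receptors Tacr1 (0.57), which binds substance P, and Tacr3 (0.36), which binds neurokinin B, were higher in DS, opposite to Tac2, and Tacr3 did not pass with mouse as a block (log2 difference 0.25, FDR 0.253, against a range of 0.0285 to 0.432 over all alternatives). Also higher in VS were the neurotensin receptor gene Ntsr1 (-1.66), the cholecystokinin receptor gene Cckbr (-1.16), Crhr1 (-0.58) and Adcyap1r1 (-0.56).

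**Figure D4:**
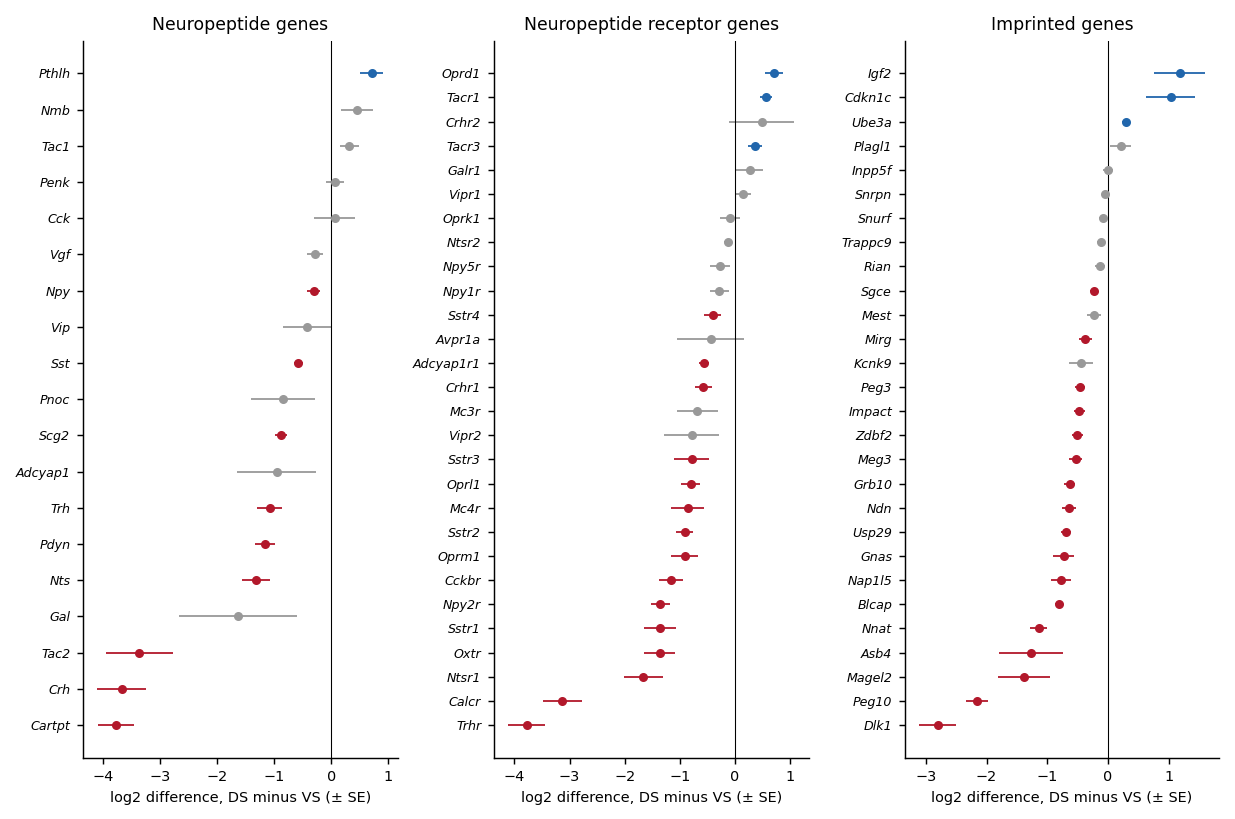
Log2 difference (DS minus VS, with SE bars) of each neuropeptide, neuropeptide receptor and imprinted gene tested, with genes higher in DS in blue, genes higher in VS in red and genes at an FDR of 0.1 or above in grey. Most coloured points lie left of 0, from Trhr (-3.78) and Cartpt (-3.77) on, and Penk (0.07) is near 0.

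Genes of the eccentric SPN type were higher in VS. Of 6 listed, 5 passed in that direction, where 15.6% of all genes did, with a median of -1.06. Otof, the synaptic calcium sensor otoferlin, ran from 15 to 25 CPM in DS (median 18.5) and from 33.5 to 52 CPM in VS (median 41.4) (log2 difference -1.17 ± 0.12 (SE), FDR 1.11e-05). Col11a1, a collagen chain, ran from 2.72 to 7.81 CPM in DS (median 4.74) and from 9.95 to 19.1 CPM in VS (median 12.4) (log2 difference -1.42 ± 0.18 (SE), FDR 6.47e-05). Both were apart in every library, as was Pcdh8 (-1.39). Adarb2 (-0.95) and Casz1 (-0.92) overlapped, and Cacng5 did not pass (-0.25). Casz1 lost its call with the myelin list as covariate (-0.92).

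The compartment lists did not move as blocks. Of 8 striosome genes 4 were higher in VS (Oprm1, Lypd1, Pdyn and the imprinted gene Nnat) and 1, Kremen1, in DS (15.6% and 15.3% of all genes). Kremen1 ran from 30.5 to 44.5 CPM in DS (median 39) and from 16.8 to 23.2 CPM in VS (median 20.8) (log2 difference 0.89 ± 0.10 (SE), FDR 1.52e-05), with no overlap. Of 6 matrix genes 4 were higher in DS (15.3% of all genes): the guanine exchange factor Rasgrp2 (0.76), the vesicle protein Sv2b (0.50), the Eph receptor Epha4 (0.47) and Id4 (0.46). The matrix gene Gda, guanine deaminase, went the other way: it ran from 163 to 206 CPM in DS (median 179) and from 246 to 325 CPM in VS (median 289) (log2 difference -0.66 ± 0.08 (SE), FDR 2.99e-05) and did not overlap. Calb1, the calbindin commonly used for matrix, was at 152 to 319 CPM in DS against 191 to 233 CPM in VS and did not pass (FDR 0.601).

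Of 17 interneuron genes 4 were higher in DS and 7 in VS (15.3% and 15.6% of all genes). The cholinergic genes Chat, which makes acetylcholine (0.49), and Slc5a7, which takes up choline (0.60), were higher in DS, while the vesicular transporter gene Slc18a3 did not pass (3.47 to 10.8 CPM in DS against 5.45 to 10.2 CPM in VS). Th, the rate-limiting enzyme of dopamine synthesis, was higher in VS: it ran from 2.23 to 7.21 CPM in DS (median 6.24) and from 8.18 to 13.6 CPM in VS (median 9.37) (log2 difference -0.87 ± 0.22 (SE), FDR 0.00878). Th lost its call with the myelin list as covariate, with a difference of -0.42. Lhx6, a factor of interneurons from the medial ganglionic eminence that also marks pallidal neurons, was higher in VS (-0.78). Pvalb (3.68 to 23.7 CPM in DS against 2.46 to 15 CPM in VS) and Nos1 (68.5 to 91.7 CPM in DS against 63.6 to 80.8 CPM in VS) did not pass. The 6 called genes of the septum, pallidum and basal forebrain list, Lhx6 included, were all higher in VS (median of the list -0.78).

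Genes that carry dopamine and adenosine signals to cAMP were higher in DS in 16 of 22 cases and higher in VS in 1 (15.3% and 15.6% of all genes), with a median of 0.41. The exception was Drd3. By role, the receptors Drd1, Drd2, Adora2a and Adora1 (0.27), the G-protein subunits Gnal (0.35), Gng7 (0.36) and Gnb5 (0.35), the cyclase Adcy5, the phosphodiesterases Pde10a, Pde1b and Pde7b (0.65) and the target Ppp1r1b were on the same side. Rgs4, which speeds the shut-off of Gi and Gq signals, had the largest difference of the list in DS: it ran from 437 to 976 CPM in DS (median 718) and from 206 to 364 CPM in VS (median 288) (log2 difference 1.25 ± 0.16 (SE), FDR 5.34e-05), with no overlap. The cAMP-coupled orphan receptor gene Gpr52 differed by 0.60. Drd5 (1.76 to 4.47 CPM in DS against 2.09 to 4.47 CPM in VS), Rgs2, Prkar2b and Prkcd did not pass, and Drd4 was too low to test. Leaving out 1 library at a time took the call from Gnal, Gng7, Adora1 and Adora2a in some fits, with highest FDRs of 0.129, 0.132, 0.106 and 0.108. Prkcd, a protein kinase C gene, spread from 10.6 to 79.8 CPM among the DS libraries.

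Among muscarinic and serotonin receptors 5 of 16 were higher in VS and 1 in DS, a share near that of all genes (30.9% called). Chrm5, the muscarinic receptor of dopamine neurons, ran from 0.148 to 1.52 CPM in DS (median 0.62) and from 1.74 to 4.76 CPM in VS (median 3.69) (log2 difference -2.15 ± 0.31 (SE), FDR 0.000169), with no overlap. Chrm4, the muscarinic receptor enriched in D1-type SPNs, was the one higher in DS (0.47), and Chrm1 (102 to 178 CPM in DS against 98.1 to 178 CPM in VS) and Chrm2 (8.01 to 17 CPM in DS against 7.68 to 17.6 CPM in VS) did not pass. Htr4, a receptor that raises cAMP, ran from 1.9 to 4.8 CPM in DS (median 3.44) and from 4.97 to 8.4 CPM in VS (median 7.4) (log2 difference -1.11 ± 0.21 (SE), FDR 0.00105), again with no overlap. Htr1a (-1.11), Htr7 (-0.93) and Htr2c (-0.52) were higher in VS with overlap, and Htr7 lost its call without acute VS replicate 5 (FDR 0.193, against 0.000668 to 0.404 over all alternatives). With the myelin list as covariate, under which 25.8% of all genes were called, 4 of the 16 were higher in DS and 8 in VS.

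In the GABA-A receptor family 5 of 14 subunits were higher in VS and 1 in DS, where 15.6% and 15.3% of all genes were. Of the former, 3 lie close together on the X chromosome in GRCm39, Gabre (chrX:71299605-71318409), Gabra3 (chrX:71476287-71700454) and Gabrq (chrX:71868784-71886208). Gabre ran from 0 to 1.19 CPM in DS (median 0.444) and from 0.905 to 9.57 CPM in VS (median 4.23) (log2 difference -2.97 ± 0.56 (SE), FDR 0.00129). Gabra3 ran from 28.3 to 48.3 CPM in DS (median 35.4) and from 40.4 to 88.3 CPM in VS (median 63.5) (log2 difference -0.75 ± 0.16 (SE), FDR 0.00234). Gabrq ran from 0.656 to 5.6 CPM in DS (median 1.74) and from 1.94 to 27.2 CPM in VS (median 10.7) (log2 difference -2.24 ± 0.52 (SE), FDR 0.00524). All of this cluster overlapped between the regions. Gabra5, a subunit of extrasynaptic receptors, was apart in every library: it ran from 21.3 to 29.4 CPM in DS (median 24.3) and from 39.2 to 50.5 CPM in VS (median 45.1) (log2 difference -0.85 ± 0.08 (SE), FDR 7.5e-06). Gabra4, the extrasynaptic subunit partnered with delta, was higher in DS (0.70). Gabrb2 (0.04), a subunit of synaptic receptors, did not pass. With the myelin list as covariate 5 subunits were higher in each region, where 25.8% of all genes were called.

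Glutamate receptors were divided, with 7 of 23 higher in DS and 4 in VS (15.3% and 15.6% of all genes). Among those higher in DS were the NMDA receptor subunit genes Grin2a (0.65) and Grin2b (0.42), the AMPA receptor genes Gria2 (0.27) and Gria3 (0.26), the kainate receptor gene Grik2 (0.28) and the metabotropic receptor gene Grm5. Grm5 ran from 375 to 452 CPM in DS (median 430.3) and from 235 to 329.7 CPM in VS (median 299.9) (log2 difference 0.50 ± 0.08 (SE), FDR 0.000305), with no overlap. Higher in VS were Grin3a, the NMDA subunit that lowers calcium entry, which ran from 10.04 to 19.4 CPM in DS (median 16.2) and from 19.4 to 53.4 CPM in VS (median 36.4) (log2 difference -1.21 ± 0.21 (SE), FDR 0.000738), and Grin2d (-0.90), Grik1 (-1.23) and Grik4 (-1.0), of which Grik1 did not pass without chronic VS replicate 1 (FDR 0.105, against 0.000178 to 0.189 over all alternatives). The obligatory NMDA subunit gene Grin1 was at 402 to 501 CPM in DS against 360.4 to 500.5 CPM in VS and did not pass (FDR 0.826).

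Potassium channel genes, which set how SPNs rest and fire, were higher in DS in 14 of 36 cases and in VS in 8 (15.3% and 15.6% of all genes). Kcnab1, the beta subunit of Kv1 channels, had the largest difference in DS: it ran from 373 to 650.2 CPM in DS (median 541) and from 185 to 319 CPM in VS (median 286) (log2 difference 0.94 ± 0.13 (SE), FDR 0.000111). Kv1 subunits Kcna4 (0.61) and Kcna2 (0.44), the M-current subunit Kcnq3 (0.67), the inward rectifier Kcnj2 (0.67) and the leak channels Kcnk2 (0.61) and Kcnk1 (0.47) were on the same side. The A-current family was split. Its pore gene Kcnd2 was higher in DS (0.54) and Kcnd3 higher in VS (-0.64), and among the partners of these channels Kcnip1 was higher in VS: it ran from 7.42 to 14.8 CPM in DS (median 9.44) and from 19.3 to 35.7 CPM in VS (median 23.5) (log2 difference -1.30 ± 0.18 (SE), FDR 9.83e-05). Kcnip4 (-0.34) was higher in VS too, and Kcnip2 is given with the dorsal list. Kcnab1, Kcnip1, Kcnd3, Kcnip4 and Kcnk1 had no overlap. Kcnn2 (0.03) did not pass.

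Of 46 transcription factor genes 14 were higher in DS and 9 in VS (15.3% and 15.6% of all genes). Onecut2, a cut-homeodomain factor, had the largest difference in DS: it ran from 26.8 to 42.4 CPM in DS (median 34) and from 7.1 to 13.5 CPM in VS (median 9.97) (log2 difference 1.72 ± 0.16 (SE), FDR 4.02e-06), with no overlap. Rxrg, the retinoid X receptor gamma, was higher in DS by 0.94 and its partner for retinoic acid, Rarb, by 0.41. Rarb lost its call in some of the fits that left out 1 library (highest FDR 0.183). Nfib (0.78) and Id4 (0.46) were also higher in DS. On the ventral side, Tshz2, a teashirt zinc finger factor, ran from 9.06 to 16.1 CPM in DS (median 12.1) and from 22.7 to 47.4 CPM in VS (median 31) (log2 difference -1.32 ± 0.18 (SE), FDR 8.92e-05), with no overlap, and its relative Tshz1 differed by -0.44. Within the Foxp family Foxp1 and Foxp2 (0.40) were higher in DS and Foxp4 in VS (-0.65). Within the Bcl11 pair Bcl11b was higher in DS and Bcl11a in VS (-0.34). Nkx2-1 (-0.92), Lhx6 and Npas1 (-2.42), which mark neurons derived from the medial ganglionic eminence and of the pallidum, were higher in VS. Nfib, Tshz1 and Bcl11a lost their calls with the myelin list as covariate, with differences of 0.54, -0.21 and -0.13. Npas1 was low, at 0 to 0.728 CPM in DS against 0.646 to 6.41 CPM in VS. Dlx5, Zfhx3 and Pbx3, expressed throughout the striatal lineage, did not pass.

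Axon guidance and adhesion genes, which lay down regional wiring and persist in adult neurons, went both ways: 15 of 46 were higher in DS and 15 in VS (15.3% and 15.6% of all genes), and 10 and 8 had no overlap. Ntn1, the guidance cue netrin-1, ran from 9.39 to 14.1 CPM in DS (median 11.9) and from 26 to 44.3 CPM in VS (median 35) (log2 difference -1.54 ± 0.13 (SE), FDR 1.86e-06). Cdh4, R-cadherin, ran from 14.4 to 20.5 CPM in DS (median 18.2) and from 41.9 to 66.7 CPM in VS (median 49.4) (log2 difference -1.50 ± 0.11 (SE), FDR 7.49e-07). Unc5d, a repulsive netrin receptor, ran from 4.52 to 15.4 CPM in DS (median 11.4) and from 18.2 to 51.8 CPM in VS (median 32.2) (log2 difference -1.51 ± 0.24 (SE), FDR 0.000314). These genes were higher in VS in every library, as were the semaphorin receptor genes Nrp2 (-1.32) and Plxnc1 (-1.25). Higher in VS in this list, too, were Plxna1 (-0.98), the contactin Cntn3 (-0.71) and the Eph receptor Epha5 (-0.64).

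On the dorsal side, the type II cadherin Cdh8 ran from 100.4 to 143 CPM in DS (median 133) and from 53.9 to 76.9 CPM in VS (median 59.6) (log2 difference 1.03 ± 0.10 (SE), FDR 4.02e-06). The contactin Cntn4 ran from 39.3 to 58.3 CPM in DS (median 54.5) and from 20.7 to 28.8 CPM in VS (median 24.2) (log2 difference 1.08 ± 0.10 (SE), FDR 2.51e-06). The slit receptor Robo2 ran from 133 to 224 CPM in DS (median 190.2) and from 80.4 to 114 CPM in VS (median 100.03) (log2 difference 0.85 ± 0.11 (SE), FDR 5.26e-05). Each was apart in every library, as were Cdh9 (1.14), Cntn5 (1.04), Robo3 (1.41) and the repellent Sema3a (0.85). Ephb1 was an example of a small difference with little spread: it ran from 76.8 to 87.3 CPM in DS (median 85.3) and from 58.2 to 61.3 CPM in VS (median 59.9), a log2 difference 0.47 ± 0.05 (SE), FDR 1.23e-05. Families were divided between the regions. Robo2 and Robo3 were higher in DS, whereas Robo1 (-0.32) and the ligands Slit1 (-0.66) and Slit2 (-0.68) were higher in VS. Robo1 lost its call with the myelin list as covariate (-0.05). Slit2 passed narrowly (FDR 0.0982) and lost its call in some of the fits that left out 1 library (highest FDR 0.173). The netrin receptor Dcc was higher in DS (0.48), opposite to Ntn1 and Unc5d. Cdh8 and Cdh9 were higher in DS and Cdh4 in VS, and Cntn4 and Cntn5 in DS and Cntn3 in VS.

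Imprinted genes, which are read from only the maternal or only the paternal copy, were higher in VS in 17 of 28 cases and in DS in 3 (15.6% and 15.3% of all genes). Their median was -0.47, and 9 had no overlap with VS above DS (5.08% of all genes). The Dlk1-Dio3 domain on chromosome 12 holds paternally expressed protein genes and maternally expressed noncoding RNAs. Dlk1 (chr12:109418749-109426544), a Notch-like membrane protein, ran from 5.51 to 34.2 CPM in DS (median 16.6) and from 74.2 to 144 CPM in VS (median 119.8) (log2 difference -2.81 ± 0.30 (SE), FDR 1.5e-05). Rtl1 (chr12:109555627-109566764), a retrotransposon-derived gene, ran from 0.525 to 2.24 CPM in DS (median 1.37) and from 4.12 to 13.4 CPM in VS (median 8.2) (log2 difference -2.58 ± 0.32 (SE), FDR 4.73e-05). Dio3 (chr12:110245502-110247142), which inactivates thyroid hormone, ran from 0.174 to 1.61 CPM in DS (median 0.444) and from 3.03 to 5.82 CPM in VS (median 4.62) (log2 difference -2.73 ± 0.44 (SE), FDR 0.000406). These paternally expressed genes were higher in VS in every library. The maternally expressed Meg3 differed by -0.53 and Mirg by -0.37, both with overlap, and Rian (-0.14) did not pass. Rtl1 and Dio3 were not on the imprinted list and enter through the ranking of all genes. Rtl1, Meg3 and Mirg share exons with microRNA genes on the same strand, so that their counts can include reads of these.

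Peg10 (chr6:4747306-4760517), another retrotransposon-derived gene, ran from 21 to 57 CPM in DS (median 34.2) and from 157 to 198 CPM in VS (median 182), or 39.6 ± 14.1 CPM in DS and 179 ± 17.7 CPM in VS (log2 difference -2.16 ± 0.18 (SE), FDR 1.85e-06). On chromosome 2, Nnat, the paternally expressed small membrane protein neuronatin, and its neighbour Blcap were both higher in VS. Nnat ran from 75.6 to 158 CPM in DS (median 111) and from 222 to 332 CPM in VS (median 226) (log2 difference -1.14 ± 0.14 (SE), FDR 3.55e-05). Blcap ran from 52.7 to 68.9 CPM in DS (median 61) and from 95.1 to 118 CPM in VS (median 105) (log2 difference -0.81 ± 0.07 (SE), FDR 1.58e-06). The divergent pair Peg3 (-0.46) and Usp29 (-0.69) on chromosome 7 was higher in VS. None of these genes overlapped between the regions. Ndn (-0.64) and Magel2 (-1.38) of the Prader-Willi region were higher in VS, whereas Snrpn (-0.04) and Snurf (-0.08) of the same region, which share a transcript, did not pass. Also higher in VS were Nap1l5 (-0.78), Gnas (-0.73), Grb10 (-0.63) and Asb4 (-1.26), of which Asb4 lost its call without acute VS replicate 5 (FDR 0.249, against 0.00305 to 0.414 over all alternatives).

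The imprinted genes higher in DS were Ube3a, a ubiquitin ligase read from the maternal copy in neurons (0.29), Igf2 and Cdkn1c. Igf2, a growth factor of meninges and choroid plexus, ran from 16.2 to 111 CPM in DS (median 26.8) and from 14.6 to 20.9 CPM in VS (median 18.5) (log2 difference 1.18 ± 0.42 (SE), FDR 0.0528), and Cdkn1c, a cell cycle inhibitor, ran from 2.34 to 14.9 CPM in DS (median 4.2) and from 1.96 to 3.88 CPM in VS (median 2.72) (log2 difference 1.03 ± 0.41 (SE), FDR 0.0767). Without the 4 DS libraries high in choroid plexus genes Igf2 had a log2 difference -0.13, FDR 0.566, against a range of 0.000161 to 0.845 over all alternatives, and Cdkn1c a log2 difference 0.01, FDR 0.99, against a range of 0.00627 to 0.99 over all alternatives. With mouse as a block neither passed (FDR 0.137 for Igf2 and 0.332 for Cdkn1c). Without the 4 DS libraries high in choroid plexus genes 14 of the imprinted genes were higher in VS and 1 in DS, where 21.5% of all genes were called.

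Activity-response genes were variable within each region. Of 15 tested, 2 were higher in DS (13.3%, near the 15.3% of all genes) and none in VS. These were Egr3 (120.3 to 232 CPM in DS against 67.3 to 133 CPM in VS, log2 difference 0.77 ± 0.17 (SE), FDR 0.00406) and Egr1 (117 to 488 CPM in DS against 89.5 to 248 CPM in VS, log2 difference 0.86 ± 0.32 (SE), FDR 0.059), the latter not in every fit that left out 1 library (highest FDR 0.138). Fos (1.86 to 32.2 CPM in DS against 2.23 to 21.3 CPM in VS), Arc (25 to 246 CPM in DS against 23.2 to 129 CPM in VS) and Npas4 (4.29 to 31.4 CPM in DS against 4.82 to 23.7 CPM in VS) did not pass. The count changed with the fit. With the choroid plexus or the myelin list as covariate it was 8 of 15 higher in DS, where 29.0% and 25.8% of all genes were called. With the pallial list it was 2 (28.9% of all genes called), and without the 4 DS libraries high in choroid plexus genes 3 (21.5%). With mouse as a block, in the 10 libraries of the 5 mice that gave both regions, 9 of the 15 were higher in DS, where 33.0% of all genes were called. Arc then had a log2 difference 0.79, FDR 0.000274, against a range of 0.000274 to 0.624 over all alternatives, and Nr4a1 a log2 difference 0.66, FDR 0.00218, against a range of 0.00218 to 0.801 over all alternatives.

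Ranked by size among genes with a mean of at least 1 CPM and no overlap, the 15 genes with the largest difference toward VS were Trhr (-3.78), Cartpt (-3.77), Prlhr (-3.70), Crh (-3.67), Tac2 (-3.36), Calcr (-3.13), AW551984 (-2.88), Arhgap36 (-2.85), Dlk1 (-2.81), Dio3 (-2.73), Cbln4 (-2.73), Rtl1 (-2.58), Glt8d2 (-2.43), Gpr101 (-2.40) and Stk32b (-2.37). Of these, Trhr, Cartpt, Crh, Tac2, Calcr, Arhgap36, Dlk1 and Gpr101 are on lists described above. Prlhr, the receptor of prolactin-releasing peptide, ran from 0 to 0.518 CPM in DS (median 0.2) and from 2.25 to 3.49 CPM in VS (median 2.36) (log2 difference -3.70 ± 0.49 (SE), FDR 7.91e-05). Cbln4, a secreted synapse organizer, ran from 1.22 to 3.52 CPM in DS (median 2.23) and from 11.3 to 18.2 CPM in VS (median 14.7) (log2 difference -2.73 ± 0.20 (SE), FDR 7.49e-07). The 15 with the largest difference toward DS were Myo5c (1.87), Rassf9 (1.90), Ace (1.98), Cacng1 (2.05), Gm19410 (2.07), Gm56501 (2.16), Clspn (2.16), Adgb (2.16), B230110G15Rik (2.24), Kcnmb1 (2.34), Gm50370 (2.42), Coch (2.53), Gpx6 (2.67), Smim5 (3.01) and Wnt8b (3.51). Of these, Coch is on the dorsal list. Wnt8b, a Wnt ligand, ran from 1.9 to 4.88 CPM in DS (median 2.23) and from 0 to 0.838 CPM in VS (median 0.169) (log2 difference 3.51 ± 0.58 (SE), FDR 0.000458). Gpx6, a glutathione peroxidase, ran from 7.55 to 12.4 CPM in DS (median 10.4) and from 0.693 to 4.33 CPM in VS (median 1.24) (log2 difference 2.67 ± 0.32 (SE), FDR 3.32e-05). Ace, the angiotensin-converting enzyme, present in SPN projections and in choroid plexus, ran from 31.8 to 105 CPM in DS (median 45) and from 4.91 to 19.8 CPM in VS (median 15) (log2 difference 1.98 ± 0.33 (SE), FDR 0.000451). With the myelin list as covariate Ace, Adgb, Kcnmb1 and Rassf9 lost their calls, with differences of 0.74, 1.45, 1.55 and 1.02.

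The same contrast in saline-injected mice asked whether the pattern is found in other animals without ethanol. Of 20665 genes tested, 2041 passed (9.88%), 1145 higher in DS (5.54%) and 896 higher in VS (4.34%). The count rested on single libraries: it was 1230 without acute saline DS replicate 4, 1046 without acute saline DS replicate 6, 1005 and 1167 without acute saline VS replicates 4 and 6, and 844 without chronic saline DS replicate 6. Of the ethanol calls also tested in saline, 6194 of 6509 (95.2%) had the same sign, as had 75.9% of all genes tested in both. Of the 1696 genes called in both, which are 83.8% of the saline calls and 26.1% of the ethanol calls, 1695 had the same sign. In saline, 1 chronic DS library without counts on several chromosomes was left out. The pallial list, on which the ethanol groups were preferred, lay at 48.5 to 73.5 CPM in saline DS and 6.87 to 95 CPM in saline VS, the lowest of these, chronic saline VS replicate 5, lying within the range of the ethanol VS libraries.

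In saline mice 8 of the 14 dorsal identity genes were higher in DS and 18 of the 24 ventral identity genes higher in VS, with medians of 0.59 and -1.33, and all 14 and all 24 had the sign it had in ethanol mice. Coch was 87.3 ± 17.8 CPM in DS and 24.4 ± 11.9 CPM in VS (log2 difference 1.94 ± 0.28, FDR 0.00275). Cnr1 was 315 ± 84.9 CPM in DS and 124 ± 27.4 CPM in VS (log2 difference 1.35 ± 0.18, FDR 0.00224). Both dorsal genes were higher in DS here too. Cartpt was 2.43 ± 1.34 CPM in DS and 23 ± 15.2 CPM in VS (log2 difference -3.23 ± 0.52, FDR 0.00422). Wfs1 was 71.3 ± 11.4 CPM in DS and 229 ± 72.5 CPM in VS (log2 difference -1.68 ± 0.19, FDR 0.00103). Peg10 was 22.3 ± 6.18 CPM in DS and 102 ± 65.4 CPM in VS (log2 difference -2.24 ± 0.43, FDR 0.0116). Calcr was at or under 3 counts in every saline DS library and at least 12.7-fold higher in VS, taking 3 counts per library as the floor, and placing it at that bound leaves the list's median where it was. Of the other groups, 5 of 6 eccentric SPN genes were called higher in VS, as were 7 of 18 neuropeptide and 8 of 28 imprinted genes (4.34% of all genes). Called higher in DS were 5 of 22 dopamine and cAMP genes and 7 of 22 SPN core genes (5.54% of all genes). Among imprinted genes Dlk1 was 6.59 ± 4.16 CPM in DS and 56.4 ± 33 CPM in VS (log2 difference -3.13 ± 0.51, FDR 0.00452).

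**Figure D5:**
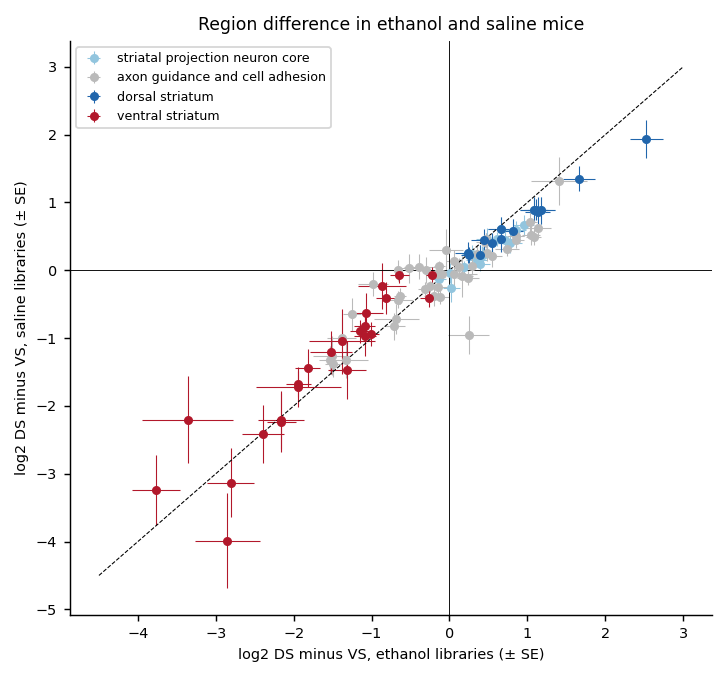
Log2 difference (DS minus VS, with SE bars) in ethanol mice (x axis) and in saline mice (y axis) for the dorsal, ventral, projection neuron core and guidance and adhesion lists. The dashed line marks equal differences, and Calcr, at or under 3 counts in every saline DS library, is left out. The dorsal and ventral list genes have the same sign in both sets of mice.

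Whether the regional difference depended on exposure, 1 injection against 10, was asked with a region by paradigm term. No gene passed in edgeR's test (0 of 21367, smallest FDR 0.997), and 709 genes (3.32%) had an unadjusted p below 0.05. Without the low-count filter 37 genes passed in edgeR's test, as given in the closing section. DESeq2 called 3 (Kcnj13, Igfbp5 and Shox2, chosen by that call), each with an FDR of 0.997 in edgeR's test with the filter. Kcnj13 held 482 and 410 counts in chronic DS replicates 1 and 5, both high in choroid plexus genes, and 0 in each chronic VS library. Shox2 held 229 counts in chronic DS replicate 1 and 0 in each chronic VS library. The DESeq2 term for Igfbp5 was 0.75. Among identity genes Coch differed by 2.78 in the acute and 2.31 in the chronic libraries, Cnr1 by 1.88 and 1.48, Cartpt by -3.77 and -3.77, and Peg10 by -2.04 and -2.27. With 3 or 4 libraries in each group, a test that did not pass does not show that the paradigms give the same regional difference.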

How the data were processed

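Per the labels and the study's methods, the authors used Cutadapt 5.0 for trimming, STAR 2.7.10a for alignment (build GRCm39) and featureCounts 2.0.6 for strand-specific counts of read pairs per gene, a pair that matched several genes being counted for each. The deposited values are these raw counts for 56415 genes, with no normalization.

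From the counts, edgeR 4.0.16 in R 4.3.3 gave TMM-normalized CPM and a quasi-likelihood F test of region with paradigm as covariate (prior count 0.125). Genes needed at least 5 counts in at least 2 libraries of a group, and FDR is Benjamini-Hochberg over all genes tested, with a cutoff of 0.1 as in the study. Standard errors were taken as the difference over the square root of F. Totals of 9689502 to 46564992 counts in the libraries used (ethanol and saline) bound the precision of low genes. DESeq2 1.42.0, other filters, libraries left out, covariates and a mouse block were alternatives. The members and gene lists were chosen with earlier results of these data known. Genes were named by rank (the 15 largest differences each way among called genes of at least 1 CPM with no overlap) and, within lists, by size and known role. Others named are list members. In the 5 mice that gave both regions, tied by the mouse label, deviations from the group means correlated at 0.0375 to 0.150 over 16578 genes. The fit was tested on simulated counts in which 200 genes were changed by 1 log2 unit. It recovered 84% of them in the ethanol design and 78% in the saline design. Unchanged genes made up 7.18% and 13.3% of its calls, the latter above the FDR cutoff of 0.1. In the interaction design, 73.5% of 200 changes of 1.5 log2 units were recovered. Saline chronic DS replicate 2, with 0 counts on chromosomes 7, 8, 9, X, Y and MT, was left out, and the deposited transcript table was not used. A few list members are counted but not reported by name here.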

Additional observations from a re-analysis of the deposited data

Results flagged for a closer look

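In 24 of 398 sets of 1 followed gene in 1 region, 1 library lay farther from the others than Dixon's 95% criterion allows, where chance gives about 1 set in 20. In acute VS replicate 2, values above the other VS libraries were those of Slc1a2 at 1466 CPM (others 1028 to 1165). In acute VS replicate 5, values above the other VS libraries were those of Tac2 at 38.6 CPM (others 3.73 to 7.68), Nnat at 332 CPM (others 222 to 262), Calb2 at 82.2 CPM (others 7.62 to 31.4), Asb4 at 9.69 CPM (others 1.42 to 4.5) and Usp29 at 122 CPM (others 83.2 to 97.2). In acute VS replicate 5, values below the other VS libraries were those of Pde1b at 559 CPM (others 911 to 1099), Adcy5 at 698 CPM (others 1155 to 1365), Chrm4 at 24 CPM (others 42.5 to 48.2), Gnb5 at 139 CPM (others 199 to 228), Kcnq3 at 143 CPM (others 170.1 to 184) and Ppp1r1b at 767 CPM (others 1348 to 1544). In chronic DS replicate 4, values above the other DS libraries were those of Glt8d2 at 2.9 CPM (others 0.296 to 1.24). In chronic DS replicate 5, values above the other DS libraries were those of Adcyap1r1 at 200.5 CPM (others 134 to 161), Htr1a at 9.3 CPM (others 2.36 to 4.72) and Pcdh8 at 22.6 CPM (others 10.6 to 13.1). In chronic DS replicate 5, values below the other DS libraries were those of Kcna2 at 174 CPM (others 212 to 237). In chronic DS replicate 6, values above the other DS libraries were those of Robo3 at 7.65 CPM (others 3.23 to 4.66). In chronic VS replicate 1, values above the other VS libraries were those of Prlhr at 3.49 CPM (others 2.25 to 2.71), Clspn at 11.9 CPM (others 3.39 to 5.32), Gpx6 at 4.33 CPM (others 0.693 to 1.65), Casz1 at 6.84 CPM (others 3.81 to 4.72) and Cdh8 at 76.9 CPM (others 53.9 to 61.4). In chronic VS replicate 4, values above the other VS libraries were those of Cdh4 at 66.7 CPM (others 41.9 to 50.8). Acute VS replicate 5 held the lowest level of the projection neuron core list in VS (266 CPM), and it held 3.39 CPM of Avp (at most 0.6 CPM in any other library) and 4.48 CPM of Lhx9 (up to 3.7 CPM elsewhere, in chronic DS replicate 1). The part of neighbouring tissue in these values was not tested.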

How the results depend on the processing

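The count of genes called between DS and VS in ethanol mice, 6610, was 7002 with DESeq2, of which 6467 were edgeR calls with the same sign, and 6594 with DESeq2 size factors, 6173 without a low-count filter and 6358 with at least 10 counts in every library. Leaving out each library in turn gave 5707 to 6642. With mouse as a replicate block in the 10 paired libraries it was 6770, and 5557 of the 6552 calls tested there were called with the same sign. The acute libraries alone gave 2562 and the chronic libraries alone 3308, with fewer samples each. Covariates for pallial, myelin and choroid plexus lists gave 6176, 5503 and 6207, and leaving out the 4 DS libraries high in choroid plexus genes gave 4347. The last of these settings and the choroid covariate were chosen after seeing the data. The interaction count of 0 was 3 with DESeq2 and 37 without a filter, and the cause was not tested. All 37 were genes that pass the low-count filter, with a mean of up to 7499.6 counts. In saline mice the count of 2041 was 2682 with DESeq2, 2061 with the replicate block, 844 to 2303 when 1 library was left out and 83 with the damaged library included. Of 199 genes followed through the alternatives, 126 kept direction and call in every alternative in which they were tested (not all of them had at least 10 counts in every library). The direction reversed for Gpr83 in the acute libraries alone (0.000588), for Igf2 with the myelin covariate (-0.33), with the choroid covariate (-0.052) and without the 4 DS libraries (-0.13), and for Cdkn1c with the myelin covariate (-0.33). The mouse block changed the call of Cdkn1c, Gpr6, Gpr83, Igf2, Kcnip2, Npy, Sstr4 and Tacr3, given beside their results, and of no other followed gene (Arc and Nr4a1, not called without the block, were not followed and are given with the activity genes). The pallial covariate ended the calls of Asb4, Gpr83, Htr7, Rarb, Slit2 and Sstr3. The myelin covariate also ended the calls of Ace, Acta2, Adgb, Aqp4, Bcl11a, Casz1, Cxcl14, Gpr83, Kcnmb1, Mirg, Nfib, Npy, Oprm1, Rassf9, Robo1, Sstr4, Stard5, Tacr3, Tek, Th and Tshz1. Leaving out the 4 DS libraries ended those of Acta2, Adora1, Adora2a, Asb4, Bcl11a, Cdkn1c, Cxcl14, Gpr83, Grik1, Lhx6, Mc4r, Mirg, Npy, Rarb, Sstr3, Sstr4, Tacr3 and Tek, besides the reversal above, and the choroid covariate those of Cdkn1c, Gpr83, Npy, Sstr4 and Tacr3. Calls were lost without acute DS replicate 3 (Adora2a, Asb4, Cdkn1c, Egr1, Gnal, Gng7, Htr7, Rarb, Slit2, Sstr3, Sstr4 and Tacr3), acute DS replicate 4 (Adora1, Asb4, Egr1, Gng7, Gpr83, Htr7, Mc4r, Npy, Rarb, Slit2, Sstr3 and Tacr3), acute DS replicate 5 (Asb4, Gnal, Gng7, Htr7, Mc4r, Npy, Rarb, Slit2 and Sstr3), acute VS replicate 2 (Cdkn1c, Gpr83, Npy, Sstr4 and Tacr3), acute VS replicate 3 (Adora1, Adora2a, Asb4, Gnal, Gng7, Gpr83, Htr7, Mc4r, Rarb, Slit2, Sstr3, Sstr4 and Tacr3), acute VS replicate 5 (Asb4, Htr7, Mc4r, Pdgfra, Rarb, Slit2 and Sstr3), chronic DS replicate 1 (Asb4, Cdkn1c, Gpr83 and Sstr3), chronic DS replicate 4 (Asb4, Egr1, Gnal, Gpr83, Htr7, Npy, Rarb, Slit2, Sstr3 and Sstr4), chronic DS replicate 5 (Cdkn1c, Gpr83, Npy and Sstr4), chronic DS replicate 6 (Adora2a, Asb4, Egr1, Gnal, Gng7, Gpr83, Htr7, Npy, Rarb, Slit2, Sstr3, Sstr4 and Tacr3), chronic VS replicate 1 (Asb4, Cdkn1c, Cxcl14, Egr1, Gng7, Grik1, Htr7, Igf2, Rarb, Slit2 and Sstr3), chronic VS replicate 4 (Asb4, Cdkn1c, Gng7, Gpr83, Igf2, Mc4r, Npy, Pdgfra, Rarb, Slit2, Sstr3, Sstr4 and Tacr3) and chronic VS replicate 6 (Cdkn1c, Gpr83, Igf2, Npy, Slit2 and Sstr4). Depth limits the low genes, since Crh reached at most 18 counts in a DS library.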

Other observations

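Genes of glia and vessels were counted in the same way. Of 9 astrocyte genes 2 were higher in DS, the water channel Aqp4 (59.1 to 98.1 CPM in DS against 41.2 to 59.5 CPM in VS, log2 difference 0.54 ± 0.11 (SE), FDR 0.00293) and the glutamate transporter Slc1a2 (1432 to 1653 CPM in DS against 1028 to 1466 CPM in VS, log2 difference 0.39 ± 0.07 (SE), FDR 0.00111), and 2 in VS, where 15.3% and 15.6% of all genes were. Without acute VS replicate 5 none was higher in VS, and with the myelin list as covariate Aqp4 lost its call, with a difference of 0.13. The gap junction gene Gja1 (-0.05) and the intermediate filament gene Gfap (0.21) did not pass. Of 10 microglia genes 2 were higher in DS, among them P2ry12 (0.33), and 1 in VS (without acute VS replicate 5, 3), and the receptor gene Csf1r did not pass (79.9 to 94.6 CPM in DS against 81.1 to 109 CPM in VS). Of 8 mural cell genes 4 were higher in DS, among them Rgs5 of pericytes (log2 difference 0.49 ± 0.09 (SE), FDR 0.000797) and the smooth muscle actin gene Acta2 (log2 difference 0.80 ± 0.19 (SE), FDR 0.00659), and of 8 endothelial genes 4, among them the transporter Slco1a4 (0.47) and the angiopoietin receptor Tek (0.39), while Cldn5 did not pass (13.1 to 22.9 CPM in DS against 14.9 to 25.7 CPM in VS). Acta2 and Tek lost their calls with the myelin list as covariate, with differences of 0.67 and 0.38. Of 5 oligodendrocyte precursor genes 1 was higher in DS and 3 in VS, among them Gpr17 (-0.40) and Pdgfra (-0.26), but without acute VS replicate 5 only Gpr17 was higher in VS. Of 11 mature myelin genes 8 were higher in DS. Of 6 piriform and claustrum genes 2 were higher in DS and 1 in VS, and 3 did not pass (15.3% and 15.6% of all genes). The 2 were Reln, the secreted protein reelin (0.83), and Lmo3 (0.66), both also expressed in striatum.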
